A study of Homo sapiens with 8 samples.

Results

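Aminoacyl-tRNA synthetases are the enzymes that join each amino acid to its tRNA. The list examined here held 36 of their genes, 20 for enzymes of the cytosol or shared between cytosol and mitochondria, and 16 whose symbols end in 2 and whose products work in mitochondria. They were taken from 19775 genes that had a probe set with 1 gene symbol, and each was represented by its brightest probe set over the 8 arrays. In this way 32 of the 36 were measured, 17 of the cytosolic or shared class and 15 of the mitochondrial class. MARS, QARS and TARS2 had probe sets that also carry the symbol of a microRNA, DARS had no named probe set in the annotation used, and these 4 were not analysed here. All 32 measured genes passed the filter on dim signal, which 61.2% of all measured genes passed.

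The arrays came from 4 established human kidney cancer lines, ACHN, CAKI2, A498 and CAKI1, obtained from a cell repository and labelled as clear cell carcinoma lines. Each line gave 1 array of cells exposed for 24 h to 75 nM A939572, an inhibitor of the desaturase SCD1, and 1 control array of cells that received DMSO, the solvent, over the same time. All were kept in DMEM with serum and antibiotics. Values of single lines are given in the order ACHN, CAKI2, A498, CAKI1 unless a line is named. The comparison was A939572 minus DMSO within each line, 4 arrays against 4, and the design asked how the responses of the lines to the drug compare. The labels name no separate cultures within a line, so errors and p-values describe the spread between lines.

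In the cytosol many synthetases work alone, while others are held together with scaffold proteins in the multisynthetase complex. Mitochondria translate their own small genome with a second set of enzymes, which are encoded in the nucleus and imported. The genes GARS and KARS supply both compartments. Many cytosolic synthetase genes are known targets of ATF4, the transcription factor of the integrated stress response, which is made when amino acids run short or when the endoplasmic reticulum is stressed.

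Promoter windows of 300 bases, from 250 before to 50 after each start site, were at hand for 30 of the 36 genes (RefSeq, GRCh38.p14). The core TGATGNAA of the composite response element to which ATF4 binds was sought on both strands. It was in a window of 7 of 16 cytosolic or shared genes and of 1 of 14 mitochondrial genes, against 4.46% of all 27305 genes with a window and 3.62% of all 35116 windows. The 8 matches are shown because they set the 2 classes side by side. Each is printed 5′ to 3′ on the strand of its gene, with the match in capitals; TTGCATCA is TGATGCAA read on the other strand, and 6 of the 8 matches are this octamer.
CARS, chr11:3057408-3057435: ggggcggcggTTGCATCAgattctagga
GARS, chr7:30594835-30594862: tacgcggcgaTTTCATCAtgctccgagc
IARS, chr9:92293693-92293720: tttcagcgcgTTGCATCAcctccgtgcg
TARS, chr5:33440957-33440984: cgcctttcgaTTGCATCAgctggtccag
MARS, chr12:57488054-57488081: ccggttccggTTGCATCAgcgagggatt
NARS, chr18:57621805-57621832: ctacgctctcTGATGCAAcgccggaatc
AARS, chr16:70289676-70289703: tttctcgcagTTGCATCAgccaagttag
YARS2, chr12:32756077-32756104: tccacactgcTGATGGAAaaattaagtt
GARS, TARS and MARS run on the plus strand and the other genes shown on the minus strand. The match began 2 bases before the start site in CARS, 4 before it in MARS, 13 before it in IARS and 33 before it in GARS. In TARS it began at base 3 and in NARS at base 15 of the transcript. In AARS and YARS2 it lay farther out, 187 and 197 bases before the start. CARS, GARS and TARS have a second start site each, whose window had no match. The endoplasmic reticulum stress element, sought in the same way, was in no member's window and in 0.0916% of all genes. A match describes letters in a window and is no evidence of binding.

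Among all 12093 genes tested, limma with Benjamini-Hochberg adjustment called 14.7% higher and 15.9% lower in A939572 at an adjusted p of 0.05, 30.6% in all. Of the 17 cytosolic or shared synthetases, 6 rose and 0 fell. The 6 were WARS, CARS, GARS, SARS, IARS and TARS. Of the 15 mitochondrial synthetases, 0 rose and 3 fell, which were SARS2, YARS2 and IARS2. These 3 are 20% of the class, near the 15.9% of all genes tested that were lower. At an unadjusted p of 0.05 in limma 9 of the cytosolic class were higher and 0 lower, and 1 of the mitochondrial class was higher and 5 lower, against 2437 higher and 2705 lower of all genes tested. The median log2 difference was 0.26 for the cytosolic class and -0.16 for the mitochondrial class, and -0.03 for all genes tested. The mitochondrial median was -0.26 without CAKI2 and -0.09 with median centring of the arrays, and the cytosolic median was 0.14 with the second brightest probe set of each gene that has one. Every one of the 9 calls was lost when the cell line was left out of the model as a block (lowest adjusted p in limma 0.0722, for WARS).

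**Figure D1:**
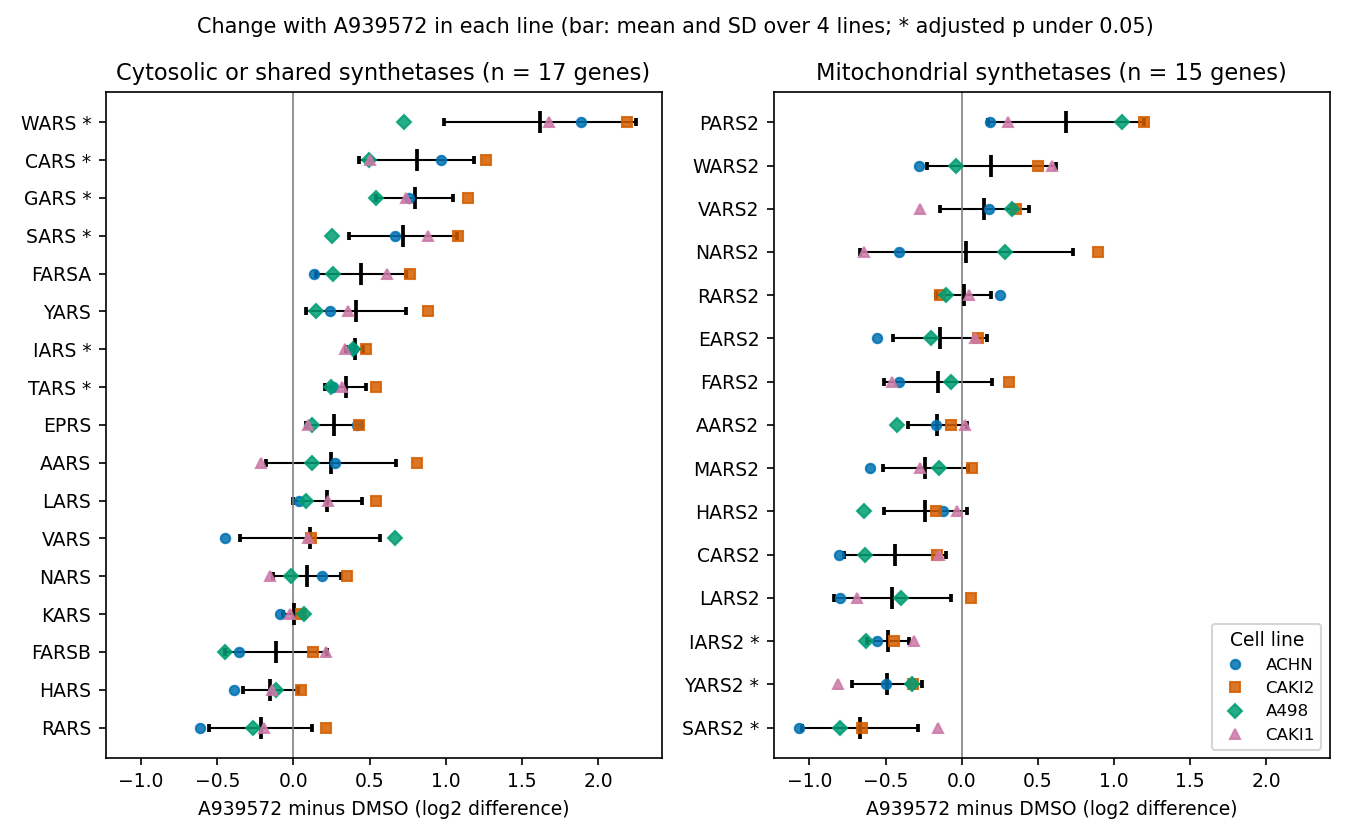
Log2 difference, A939572 minus DMSO, on the horizontal axis for each measured synthetase, cytosolic or shared genes on the left and mitochondrial genes on the right, sorted by mean. Symbols are the 4 lines, black bars the mean and SD over them, and asterisks mark an adjusted p under 0.05 in limma; WARS stands at 1.62 at the top of the left panel and SARS2 at -0.67 at the bottom of the right one.

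As a measure of RNA quality, signal of the 3′ ACTB control probe set over that of the 5′ one ranged between 2.12 and 2.33 on control arrays and between 3.02 and 4.22 on treated arrays. For GAPDH it ran from 0.962 to 1.05 and from 1.01 to 1.11. Median signals of the arrays lay between 68.6 and 84.2. Of 10 kidney and kidney carcinoma markers 8 were measured and all 8 passed the filter, with summed signals of 57050 to 80450 in DMSO and 55560 to 76960 in A939572. VIM, which is not particular to kidney, had the highest mean log2 signal of these, 15.18 in DMSO. PAX2 and CDH6 were above the filter level on 6 of the 8 arrays. PAX8 was called higher, at 0.38 ± 0.19 (limma adjusted p = 0.0294), and CDH6 lower, at -1.52 ± 1.25 (limma adjusted p = 0.0196). Leukocyte markers had 0 of 3 measured genes above the filter and summed signals of 61.2 to 141 in DMSO and 36.1 to 133 in A939572. Endothelial markers had 1 of 4 above it, with sums of 166 to 505 and 180 to 356, and fibroblast markers 1 of 5, with sums of 220 to 1364 and 237 to 993. The part of the ACTB ratio in the synthetase results was not tested.

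WARS, the tryptophanyl-tRNA synthetase of the cytosol, rose most of the 32. It is also known as a gene induced by interferon gamma, and fragments of its protein are secreted. Its normalized log2 signal was 10.84, 10.05, 11.17 and 10.06 with DMSO. With A939572 it was 12.72, 12.24, 11.89 and 11.74. The lowest treated array lay above the highest control array, and WARS was the only cytosolic synthetase whose groups did not overlap, a pattern shown by 4.63% of all genes tested. The log2 difference was 1.62 ± 0.63 (SD, n = 4 lines), or 3.07-fold (limma adjusted p = 0.000813). A498 had the smallest difference, 0.72, against 1.68 to 2.19 in the other lines. The second probe set of WARS had 1.31 ± 0.53, higher in all 4 lines. Its mitochondrial partner WARS2 had 0.19 ± 0.42 (adjusted p = 0.458), with 9.33, 8.20, 8.90 and 8.68 in DMSO and 9.05, 8.70, 8.86 and 9.28 in A939572. WARS2 was higher in CAKI2 and CAKI1 and lower in ACHN and A498.

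WARS has 2 start sites among the RefSeq windows, and neither window held TGATGNAA. The 250 bases before each are shown because WARS rose most without that core. Both are on the minus strand. Capitals mark the core of the interferon-stimulated response element, a motif chosen after the values had been seen and present in 4.38% of all genes with a window.
WARS, upstream start, chr14:100376328-100376577: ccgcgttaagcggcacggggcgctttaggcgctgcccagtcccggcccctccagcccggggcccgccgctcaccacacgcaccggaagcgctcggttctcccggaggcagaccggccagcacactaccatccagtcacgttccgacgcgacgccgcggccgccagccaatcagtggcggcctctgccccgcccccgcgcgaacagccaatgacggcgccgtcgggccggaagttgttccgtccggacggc
WARS, downstream start, chr14:100375348-100375597: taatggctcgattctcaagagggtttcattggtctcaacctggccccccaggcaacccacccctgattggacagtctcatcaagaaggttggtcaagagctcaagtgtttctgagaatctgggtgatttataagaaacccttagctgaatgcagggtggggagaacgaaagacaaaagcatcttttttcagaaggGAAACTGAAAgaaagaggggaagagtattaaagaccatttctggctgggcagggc
The match began 55 bases before the downstream start. Among the other members only EARS2 held this core, and EARS2 was not called.

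CARS, the cysteinyl-tRNA synthetase, rose 1.75-fold, a log2 difference of 0.81 ± 0.38 (limma adjusted p = 0.00261). It had 12.46, 12.20, 13.65 and 13.09 with DMSO, and 13.43, 13.46, 14.14 and 13.60 with A939572. Every line went up, and the groups overlapped because the control array of A498 lay above the treated arrays of the other lines. The next 2 probe sets of CARS had 1.01 ± 0.76 and 0.53 ± 0.44, and the dimmest, which lay below the filter level, had -0.20 ± 0.45. CARS2, which charges mitochondrial tRNA with cysteine, had -0.44 ± 0.34 and was lower in all 4 lines (adjusted p = 0.0579). It had 10.06, 9.85, 10.97 and 10.55 in DMSO and 9.25, 9.69, 10.34 and 10.41 in A939572. Its second probe set had 0.10 ± 0.19, so the probe sets of CARS2 disagreed in sign.

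GARS, the glycyl-tRNA synthetase of both compartments, rose by 0.79 ± 0.25 on the log2 scale, or 1.73-fold (limma adjusted p = 0.000867). It had 14.08, 13.41, 14.37 and 13.51 with DMSO, and 14.84, 14.55, 14.91 and 14.25 with A939572. The control array of A498 lay above the treated array of CAKI1, so the groups overlapped, yet each line rose by at least 0.54 after quantile normalization. With the deposited scaling alone the mean difference of GARS was 0.69. Its rise in A498, the smallest, was then smaller still, with a deposited signal of 21614 in DMSO and 25942 in A939572. KARS, the lysyl-tRNA synthetase and the other gene of both compartments, had 0.00 ± 0.07 in its brightest probe set (adjusted p = 0.994) and -0.23 ± 0.19 in its second. With the deposited scaling alone its difference was -0.08, so KARS has no settled direction.

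SARS and SARS2 charge the serine tRNAs of cytosol and mitochondria, and they moved in opposite directions. SARS had 12.38, 11.19, 12.93 and 12.17 with DMSO and 13.05, 12.27, 13.18 and 13.05 with A939572, a rise of 0.72 ± 0.35 or 1.65-fold (limma adjusted p = 0.00467). The second probe set of SARS had 0.53 ± 0.38, with -0.01 in A498. SARS2 had 8.43, 8.66, 8.40 and 8.17 in DMSO and 7.37, 8.01, 7.60 and 8.02 in A939572, a fall with a log2 difference of -0.67 ± 0.38 (limma adjusted p = 0.0304). All treated arrays of SARS2 lay below all control arrays, the only such fall among the members, against 4.93% of all genes tested. The call of SARS2 was lost without ACHN (adjusted p = 0.115), without CAKI2 (0.0794), without A498 (0.0948) and with no filter on dim genes (0.0746), with adjusted p from 0.0222 to 0.267 over all alternatives.

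IARS and IARS2, the isoleucyl-tRNA synthetases, moved apart as well, and after quantile normalization both changes were even across the lines. IARS had 14.20, 13.18, 14.54 and 13.29 with DMSO and 14.60, 13.66, 14.93 and 13.63 with A939572. Its log2 difference of 0.40 ± 0.06 (limma adjusted p = 0.00593) ran only from 0.34 to 0.48, although the lines differed by 1.36 in DMSO. With the deposited scaling alone the difference of IARS was 0.32 (limma adjusted p = 0.0452). Its deposited signal went from 24093 to 26415 in A498, against 18654 to 25261 in ACHN. The rise of IARS was thus less even before quantile normalization. IARS2 had 13.22, 13.24, 12.97 and 13.38 in DMSO and 12.67, 12.80, 12.34 and 13.07 in A939572. It fell, with a log2 difference of -0.49 ± 0.14 (limma adjusted p = 0.00602) and a range of -0.63 to -0.31. The call of IARS was lost without the variance trend (adjusted p = 0.0504), with adjusted p from 0.00378 to 0.752 over all alternatives.

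TARS, the threonyl-tRNA synthetase, had the smallest rise among the 6, 0.34 ± 0.14 or 1.27-fold (limma adjusted p = 0.0246). It had 13.12, 12.66, 13.63 and 12.89 with DMSO and 13.38, 13.20, 13.87 and 13.21 with A939572, higher in each line with overlapping groups. Its call was lost when any 1 of the 4 lines was left out (adjusted p 0.0519 to 0.097) and in 4 other settings, with adjusted p from 0.0132 to 0.618 over all alternatives. The second probe set of TARS had 0.76 ± 0.48. YARS2, which charges mitochondrial tyrosine tRNA, had 11.24, 10.08, 9.90 and 10.90 in DMSO and 10.74, 9.76, 9.57 and 10.09 in A939572, a fall with a log2 difference of -0.49 ± 0.23 (limma adjusted p = 0.0245). The call of YARS2 was lost without ACHN (adjusted p = 0.0735), without CAKI1 (0.0997) and with median centring of the arrays (0.0664), with adjusted p from 0.0161 to 0.657 over all alternatives. The cytosolic YARS had 12.07, 11.17, 11.98 and 11.50 in DMSO and 12.31, 12.05, 12.13 and 11.86 in A939572. It was higher in all 4 lines, by 0.41 ± 0.33, and missed the threshold (adjusted p = 0.0517), which it passed in 4 of 15 alternatives.

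**Figure D2:**
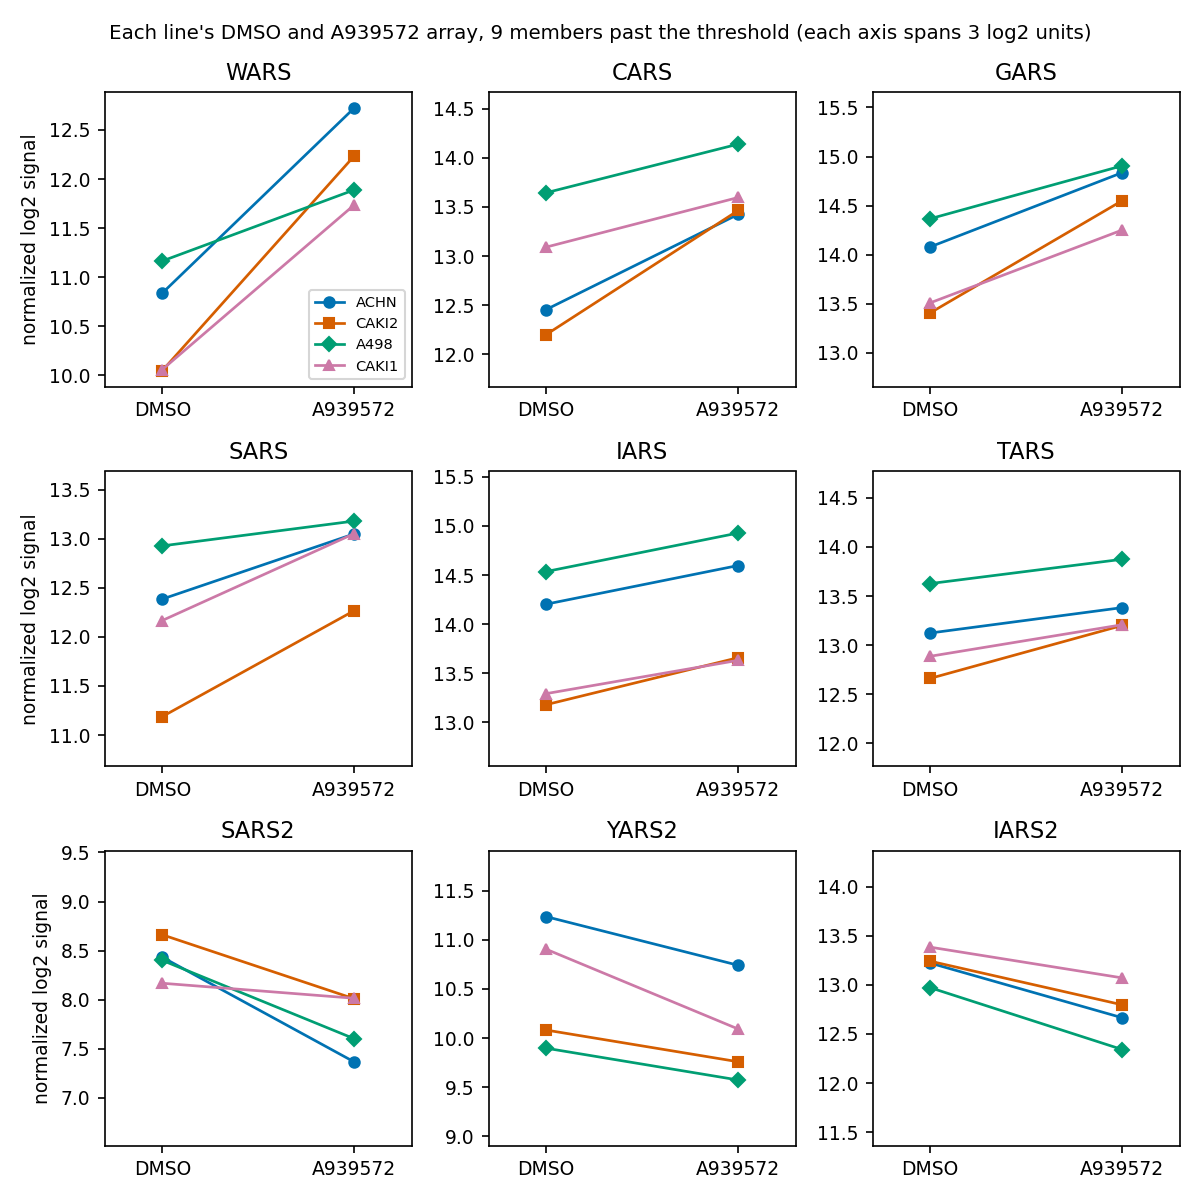
Normalized log2 signal on the vertical axis for the DMSO and the A939572 array of each line, joined by a line, in the 9 synthetases past the threshold. Every segment rises in WARS, CARS, GARS, SARS, IARS and TARS and falls in SARS2, YARS2 and IARS2, and only WARS and SARS2 show no overlap between groups.

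The other 11 cytosolic or shared genes measured were not called. FARSA, one subunit of the phenylalanyl enzyme, had 0.44 ± 0.30 (adjusted p = 0.057) and was higher in 4 of 4 lines, while FARSB, its other subunit, had -0.12 ± 0.33 and was higher in CAKI2 and CAKI1 only. EPRS, the fused glutamyl and prolyl enzyme of the complex, had 0.26 ± 0.18 (adjusted p = 0.0854) and LARS, the leucyl enzyme, 0.22 ± 0.23, each higher in 4 of 4 lines. In second probe sets EPRS had 0.09 ± 0.07, LARS 0.10 ± 0.25 and FARSA 0.09 ± 0.24, and the third of LARS had -0.08 ± 0.20. AARS had 0.25 ± 0.43, from -0.21 in CAKI1 to 0.81 in CAKI2, and VARS 0.11 ± 0.46, from -0.45 in ACHN to 0.67 in A498. NARS (0.09 ± 0.22), HARS (-0.15 ± 0.18) and RARS (-0.21 ± 0.34) lay near 0 or below it. In all, 10 of the 17 were higher in 4 of 4 lines and 0 were lower in 4 of 4, against 22.7% and 25.3% of all genes tested.

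By place in the cell, 5 of 12 free enzymes rose, with a median of 0.37, and 1 of 5 measured members of the multisynthetase complex, IARS, with a median of 0.22. Of the 8 complex enzymes on the list, DARS, MARS and QARS were the 3 not analysed. By the fold of the catalytic domain, 3 of 8 class I enzymes rose (median 0.33) and 3 of 9 class II enzymes (median 0.25). EPRS has a domain of each class and was counted in class I by its glutamyl part. None of these groups had a member that fell. Of all genes tested 14.7% rose and 15.9% fell, and groups this small can easily hold no gene that fell. Differences between the groups were not tested.

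Of the 12 mitochondrial genes that were not called, PARS2, the prolyl enzyme, stood highest. It had 0.69 ± 0.51 (adjusted p = 0.0625), with 1.20 in CAKI2 and 1.05 in A498 against 0.19 in ACHN and 0.31 in CAKI1, and it was the only mitochondrial member higher in all 4 lines. Its mean in DMSO, 7.07, lay close to the filter level of 6.41, so the size of this difference is uncertain. LARS2 (-0.46 ± 0.38), HARS2 (-0.24 ± 0.27), MARS2 (-0.24 ± 0.28), AARS2 (-0.16 ± 0.19), FARS2 (-0.16 ± 0.36) and EARS2 (-0.14 ± 0.31) had means below 0. VARS2 (0.15 ± 0.29), NARS2 (0.03 ± 0.70) and RARS2 (0.01 ± 0.18) had means above 0. NARS2 differed most between lines, from -0.64 in CAKI1 to 0.89 in CAKI2. Altogether 5 of the 15 were lower in 4 of 4 lines, against 25.3% of all genes tested, and 1 was higher in 4 of 4.

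Line by line, with 1 array against 1 and hence no test, the median difference of the cytosolic class was 0.24, 0.54, 0.15 and 0.22. That of the mitochondrial class was -0.41, 0.06, -0.20 and -0.15. The cytosolic median was above the mitochondrial one in each line, by 0.65, 0.48, 0.35 and 0.38. The log2 change of the ACTB 3′ to 5′ ratio had the same order of lines, at 0.98, 0.64, 0.42 and 0.51. Its part in this gap was not tested. CAKI2 stood highest in both classes, and it was the line where the mitochondrial median was above 0. The medians of all genes tested lay between -0.04 and -0.01 in the 4 lines.

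**Figure D3:**
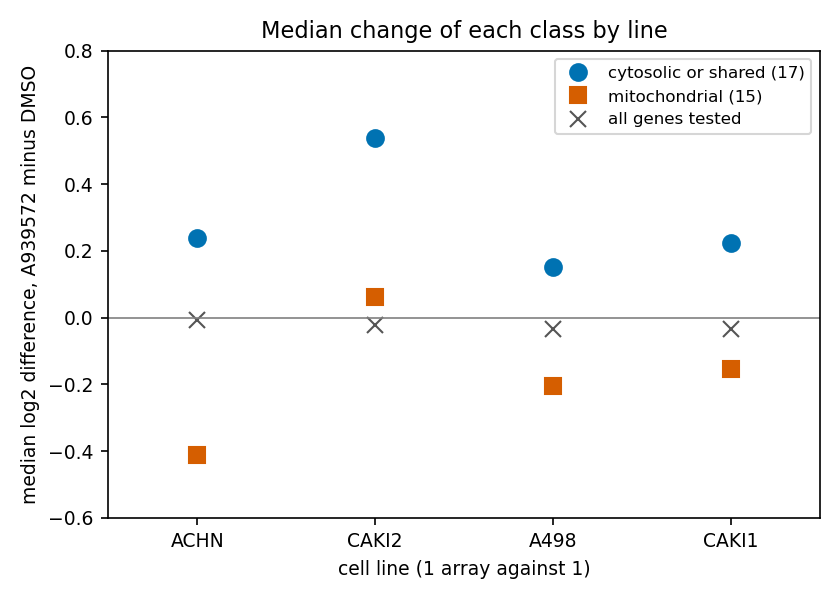
Median log2 difference, A939572 minus DMSO, of 17 cytosolic or shared synthetases (circles), 15 mitochondrial synthetases (squares) and all genes tested (crosses) in each line. Circles lie above squares in all 4 lines, with the largest gap, 0.65, in ACHN.

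A direct comparison set each cytosolic gene against the mitochondrial gene for the same amino acid, as the difference between their 2 changes in a line. Of 17 such pairs 15 were measured. EPRS and FARS2 each stand in more than a single pair, so the pairs are not independent. In 8 pairs the cytosolic gene changed more upward in 4 of 4 lines, and in 0 pairs did the mitochondrial gene do so in 4 of 4. The exact sign-flip permutation test over 4 lines (2-sided) cannot give a p below 0.12, which those 8 pairs had, so no pair could pass 0.05. The widest gaps were WARS over WARS2 at 1.42 ± 0.63, SARS over SARS2 at 1.39 ± 0.40 and CARS over CARS2 at 1.25 ± 0.48 on the log2 scale. YARS over YARS2 followed at 0.90 ± 0.35, IARS over IARS2 at 0.89 ± 0.16, LARS over LARS2 at 0.68 ± 0.23 and FARSA over FARS2 at 0.60 ± 0.33. EPRS over EARS2 had 0.41 ± 0.41, with only 0.0075 in CAKI1. AARS over AARS2 had 0.41 ± 0.47, with CAKI1 the other way.

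The remaining pairs had lines on both sides of 0. HARS over HARS2 had 0.09 ± 0.35, NARS over NARS2 0.06 ± 0.57, FARSB over FARS2 0.04 ± 0.46 and VARS over VARS2 -0.04 ± 0.48, each with 2 lines on either side of 0. RARS over RARS2 had -0.23 ± 0.50 and EPRS over PARS2 -0.42 ± 0.53. HARS and HARS2 are neighbours that are transcribed away from each other, and their promoter windows overlap by 184 bases. The 84 bases between the 2 start sites are shown because they lie before both genes (plus strand, HARS to the left and HARS2 to the right).
HARS and HARS2, chr5:140691371-140691454: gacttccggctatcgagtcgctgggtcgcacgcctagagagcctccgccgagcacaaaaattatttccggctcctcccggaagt
The log2 difference of HARS ran from -0.39 in ACHN to 0.05 in CAKI2, and that of HARS2 from -0.64 in A498 to -0.03 in CAKI1. HARS2 was lower in all 4 lines and HARS in 3 of them, with neither called. The 2 proteins are closely related, and a probe set of either gene may read some of the other's transcript.

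**Figure D4:**
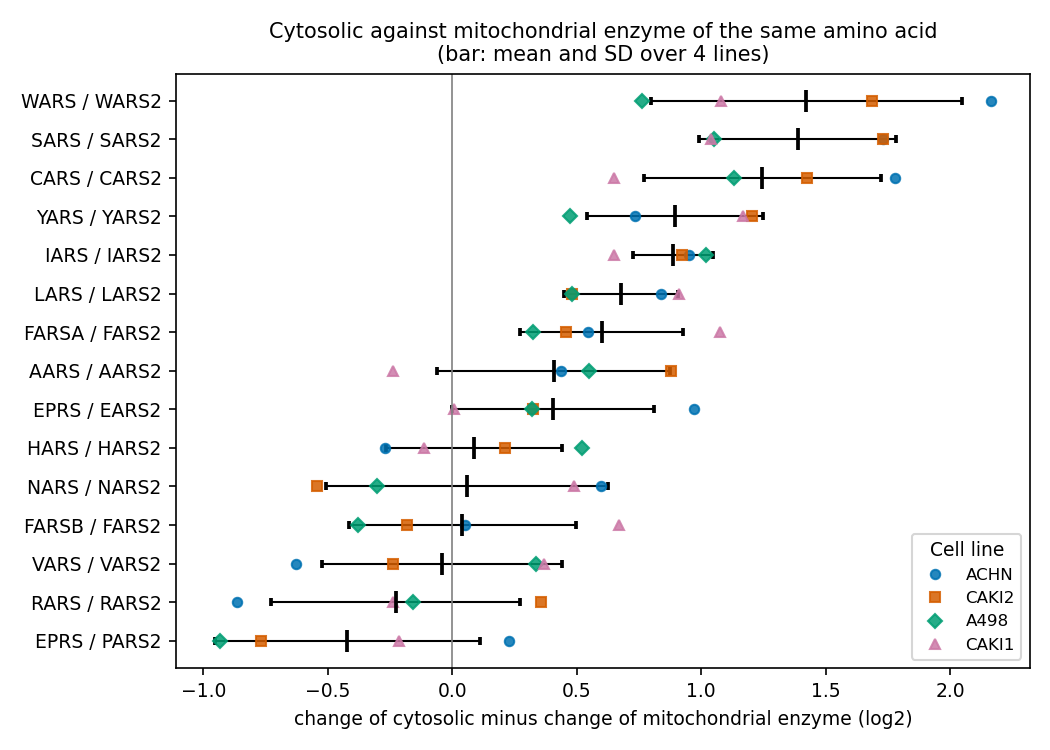
For each amino acid, the log2 change of the cytosolic gene minus that of the mitochondrial gene, with symbols for the 4 lines and bars for the mean and SD. WARS over WARS2 stands highest at 1.42 and EPRS over PARS2 lowest at -0.42, and all 4 symbols lie right of 0 in 8 of the 15 pairs.

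The lines did not start from the same level. In DMSO, A498 was the highest and CAKI2 the lowest of the 4 lines for each of the 6 genes that rose. Both held together in 7.85% of all genes tested and in 11.4% of the genes called higher. In each of the 6 the normalized difference was largest in CAKI2, which was so for 26.6% of the genes called higher. In 5 of them it was smallest in A498, as in 22.4% of the genes called higher, IARS being the exception. In the deposited signals, however, IARS rose most in ACHN, from 18654 to 25261, and least in A498, from 24093 to 26415. The range over the 4 lines was smaller in A939572 than in DMSO for all 6, as for 51.2% of genes called higher: it went from 1.74 to 0.91 log2 units in SARS, from 1.44 to 0.72 in CARS, from 1.36 to 1.3 in IARS and from 1.12 to 0.99 in WARS. Of the whole cytosolic class, 13 of 17 were lowest in CAKI2 in DMSO and 14 of 17 changed most upward there. Of the 15 mitochondrial genes 3 were lowest in CAKI2 and 8 changed most upward there. Over all genes tested these shares were 26% and 25%. Each level is 1 array, and the DMSO array enters both the level and the difference, so these are descriptions of the arrays and not independent measures.

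Read against the promoter matches printed above, 4 of the 6 genes that rose (CARS, GARS, IARS and TARS) had TGATGNAA in a window and WARS and SARS had none. Of 8 cytosolic or shared genes with a window that were tested and not called, AARS and NARS had it. YARS2, the mitochondrial gene with a match, fell.

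Genes around the synthetases were read from lists of related functions. Of all genes tested 14.7% were called higher and 15.9% lower. Of the 3 scaffold proteins of the multisynthetase complex only AIMP1 was measured, with 0.10 ± 0.18 (adjusted p = 0.524). Of 8 other genes that make or edit charged tRNA 7 were tested and 0 were called in limma, 1 being higher and 1 lower at an unadjusted p of 0.05. SEPSECS, which makes selenocysteinyl-tRNA, had 0.44 ± 0.22 (adjusted p = 0.0662), and MTFMT, which formylates the mitochondrial initiator tRNA, had -0.38 ± 0.28 (0.0881). In the list for tRNA export, sensing of uncharged tRNA and linked factors, 1 of 5 tested rose and 3 fell. XPOT, the export receptor of tRNA, rose by 0.63 ± 0.28 (limma adjusted p = 0.00318), and EIF2AK4, the kinase GCN2 that senses uncharged tRNA, fell by a log2 difference of -0.42 ± 0.24 (limma adjusted p = 0.0421).

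Of 4 cytosolic elongation factors tested 1 rose, EEF2 at 0.33 ± 0.14 (limma adjusted p = 0.0196), and 1 fell, EEF1A2 at -0.52 ± 0.24 (limma adjusted p = 0.0299). Among all genes tested 14.7% rose and 15.9% fell, so counts this small do not set the list apart. Of 10 mitochondrial translation factors 2 rose and 1 fell, or 20% and 10%, near these shares. The factor that fell was TUFM, which carries charged tRNA to the mitochondrial ribosome, at -0.43 ± 0.07 (limma adjusted p = 0.0133), and MTRF1, a release factor, rose by 0.66 ± 0.43 (limma adjusted p = 0.0233). The median of that list was 0.22, above that of the mitochondrial synthetases. The list of 17 amino acid response genes held ATF4 itself and genes it is known to drive. Of the 17, 12 rose (70.6%) and 0 fell, with 2 lower at an unadjusted p of 0.05 in limma. ATF4 was among the 12, at 0.84 ± 0.15 (limma adjusted p = 0.000379). The median of the list was 0.84, above the 0.26 of the cytosolic synthetases. The lowest p-values in that list were those of DDIT3, a stress-induced transcription factor, at 2.98 ± 0.66 (limma adjusted p = 9.08e-05), and of SESN2, an inhibitor of mTORC1 signalling, at 1.94 ± 0.24 (limma adjusted p = 0.000114). None of these differences between lists was tested, and the lists were chosen with earlier results of these data known.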

How the data were processed

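Total RNA of 8 samples was measured on 1-colour oligonucleotide arrays after labelling with biotin, per the labels' protocols. The authors deposited linear intensity signals, 1 per probe set; the program behind them is not given in the sources used here. Signals carry a common scaling by the authors, with trimmed means of 500.067 to 500.073.

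Signals were transformed as log2(signal + 16), which understates changes of dim genes, and quantile normalized without 62 control probe sets. Of the others, 41091 had 1 gene symbol in the platform annotation, 1801 several and 11721 none. Symbols were updated through Entrez IDs (41037 matched; GRCh38.p14 table). The brightest probe set stood for a gene, and 12093 genes with a mean of at least 6.41 (the probe sets' median) were tested. The test was limma 3.58.1 in R 4.3.3 (lmFit, eBayes with trend, 2-sided, Benjamini-Hochberg), checked on simulated data. The cell line was a block, as the design pairs arrays by line. Deviations from group means correlated at 0.818 to 0.864 within lines and at most at -0.0301 between them. Subtracting the group mean itself pushes the correlations between lines below 0, so their sign is partly set by this step. The number of arrays limits the precision (median SE 0.165).

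The members and lists were chosen with earlier results of these data known. All members are named. Members past the threshold, up to 6 per class and direction, and their partners have values for every array. Up to 2 genes with the smallest p are named per list of related functions, and ATF4 besides. Alternatives covered normalization, offset, filter, probe set choice, block, trend and leaving out each line.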

Additional observations from a re-analysis of the deposited data

Results flagged for a closer look

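In 96 groups of 4 values (32 genes, each in DMSO, in A939572 and as a difference) 3 held an array far from the rest, where chance alone gives about 1 in 20. EPRS had a log2 signal of 12.78 in CAKI2 with A939572, against 13.13 to 13.17 in the other treated lines. SARS had 12.27 in CAKI2 with A939572, against 13.05 to 13.18. PARS2 had 6.33 in A498 with DMSO, against 7.24 to 7.42 in the other control lines.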

How the results depend on the processing

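With no replicate block, that is without the cell line in the model, 0 cytosolic or shared synthetases were called higher and 0 mitochondrial ones lower, and over all genes 38 were higher and 29 lower. With the mean of all probe sets 1 mitochondrial gene, PARS2, was higher (limma adjusted p = 0.0479, with 0.0479 to 0.457 over its alternatives). PARS2 has 1 probe set, so its own values stayed as they were and only those of other genes in the fit changed. With a line left out, the mitochondrial genes called lower numbered 1 to 3, with 1 (IARS2) without ACHN, and the cytosolic median minus the mitochondrial median ran from 0.41 to 0.57, highest without CAKI1. In the other settings run, 4 to 8 cytosolic genes were higher, 2 to 4 mitochondrial genes were lower, and the cytosolic median stayed above the mitochondrial one. Of the genes called over the whole array 48% were higher, and 58.3% with median centring, a setting that gave 8 cytosolic genes higher and 2 mitochondrial genes lower. No called synthetase changed direction in any setting. WARS, CARS, GARS, SARS and IARS2 lost their calls in no other setting than the model without the block. GARS was tested in 14 alternatives and the others of these in 15, as a setting on probe set choice left out its only probe set. PARS2 lay nearest to the filter level among the synthetases named with a value for every line.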
